A study of Mus musculus with 11 samples.

Results

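Collagen genes were read on 11 expression arrays of the adventitia, the outer coat of the vessel wall, taken from the abdominal aorta of aged mice. The genes were chosen by name alone: a probe set belonged to the group where its single gene symbol in the platform annotation had the form of a collagen chain name (Col, a number, a, a number). This rule found 58 of 22626 probe sets and 36 of 12393 genes. They were sorted by textbook class into 9 fibrillar chains, 6 basement membrane chains of type IV, 3 microfibrillar chains of type VI and 18 other chains. The collagen genes Col6a4, Col6a5, Col6a6, Col8a2, Col23a1, Col24a1, Col27a1 and Col28a1 were not analysed here.

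The study compared artery tertiary lymphoid organs (ATLOs), lymphoid aggregates that form in the adventitia next to atherosclerotic plaques of old hyperlipidaemic mice, with adventitia lacking them. The ATLO group (4 arrays) and the outside-lesion group (4 arrays) came from male mice of 78 weeks with the strain B6.129P2-Apoe<tm1Unc>/J, which lack apolipoprotein E in every cell, and the wild-type group (3 arrays) from male C57BL mice of the same age. All mice ate normal chow, and all tissue was cut from frozen sections with a laser. For each Apoe-deficient sample 200 sections of 10 µm were pooled. Their RNA went through phenol and chloroform, an RNeasy Micro kit and 68 h of in vitro transcription. Wild-type RNA was prepared with an RNeasy Lipid Tissue kit and transcribed for 24 h. Genotype, extraction and transcription time therefore cannot be told apart in either comparison with wild type. The outside-lesion group is named here after its tissue label, while the series text describes those mice as having no lesions, and a tag in the wild-type titles (PNS) is not explained by any label. No label says that the arrays of a group came from separate mice, so a p-value reflects the spread among the samples at hand, and that spread may be technical.

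Collagens are secreted proteins whose chains wind around each other into helical rods. Type I, III and V chains assemble into the banded fibrils that carry tension in the adventitia, type IV forms the sheet under endothelium and around smooth muscle and fat cells, and type VI forms fine beaded filaments between them. Chains of the fibril-associated group sit on the fibril surface. In lymphoid organs, fibroblastic reticular cells wrap collagen fibres into the conduits through which small molecules travel.

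Signals are linear intensities scaled by the authors to the same trimmed mean on each array, and errors of signals are SD (n = 4 ATLO, n = 4 outside-lesion and n = 3 wild-type arrays). A log2 change is the difference between group means of log2 signal with its standard error from a limma fit to all 11 arrays, and a gene was called where its Benjamini-Hochberg adjusted p over all 14988 tested probe sets was under 0.05. A gene is represented by its probe set of highest mean, and a gene on the array was tested where that probe set lay above the 40th percentile on at least 3 arrays. Of the 36 collagen genes 23 were tested, and 6 of them (Col4a6, Col7a1, Col9a1, Col19a1, Col20a1 and Col25a1) had fewer than 3 arrays above that percentile in at least 1 group. The untested genes were the fibrillar Col2a1, Col11a1 and Col11a2, the basement membrane Col4a3 and Col4a4, and Col9a2, Col9a3, Col10a1, Col12a1, Col13a1, Col17a1, Col22a1 and Col26a1 among the others. Many of these encode cartilage or epithelial chains. Signals of different probe sets are not set against each other as amounts.

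Apoe fitted the genotype labels, with a signal of 12417 ± 651 in wild type, 134 ± 31.1 in ATLO and 110.0 ± 67.0 in the outside-lesion group. Array medians lay between 152.3 and 191.7. The ratio of the 3′ to the 5′ actin control, a sign of RNA integrity and amplification, was 4.61 ± 2.71 in ATLO, 8.71 ± 2.83 in outside-lesion and 4.98 ± 0.683 in wild-type arrays. Its ranges were 1.71 to 8.14, 6.22 to 11.99 and 4.19 to 5.40. Outside-lesion arrays thus lay above wild-type arrays without overlap, and ATLO overlapped both. The same ratio of the Gapdh control ran from 1.09 to 3.18 in ATLO, 1.27 to 2.13 in outside-lesion and 1.10 to 1.30 in wild-type arrays, so the groups overlapped. Setting the array medians equal moved the median log2 change of all tested probe sets by -0.12 for ATLO against outside-lesion and by 0.17 for outside-lesion against wild type. It also moved the share of calls that were higher from 56.3% to 44.1% and from 52.8% to 87.3%, and quantile normalization moved the second share to 67.9%. 4 arrays were the highest or the lowest of their group in most of the 23 tested collagen genes. ATLO replicate 2 was the lowest of its group in 20 (87.0%, against 31.9% of all tested genes) and had the lowest actin ratio of all arrays, 1.71. ATLO replicate 3 was the highest of its group in 15 (65.2%, against 26.5% of all tested genes), outside-lesion replicate 1 the highest in 15 (65.2%, against 21.2%) and outside-lesion replicate 3 the lowest in 16 (69.6%, against 23.1%). The part of the actin ratio in the results was not tested beyond its use as a covariate. With it 2552 probe sets were called in ATLO against outside-lesion, 2429 of them among the 4777 called without it, and so were 6 of the 8 collagen genes called without it.

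**Figure D1:**
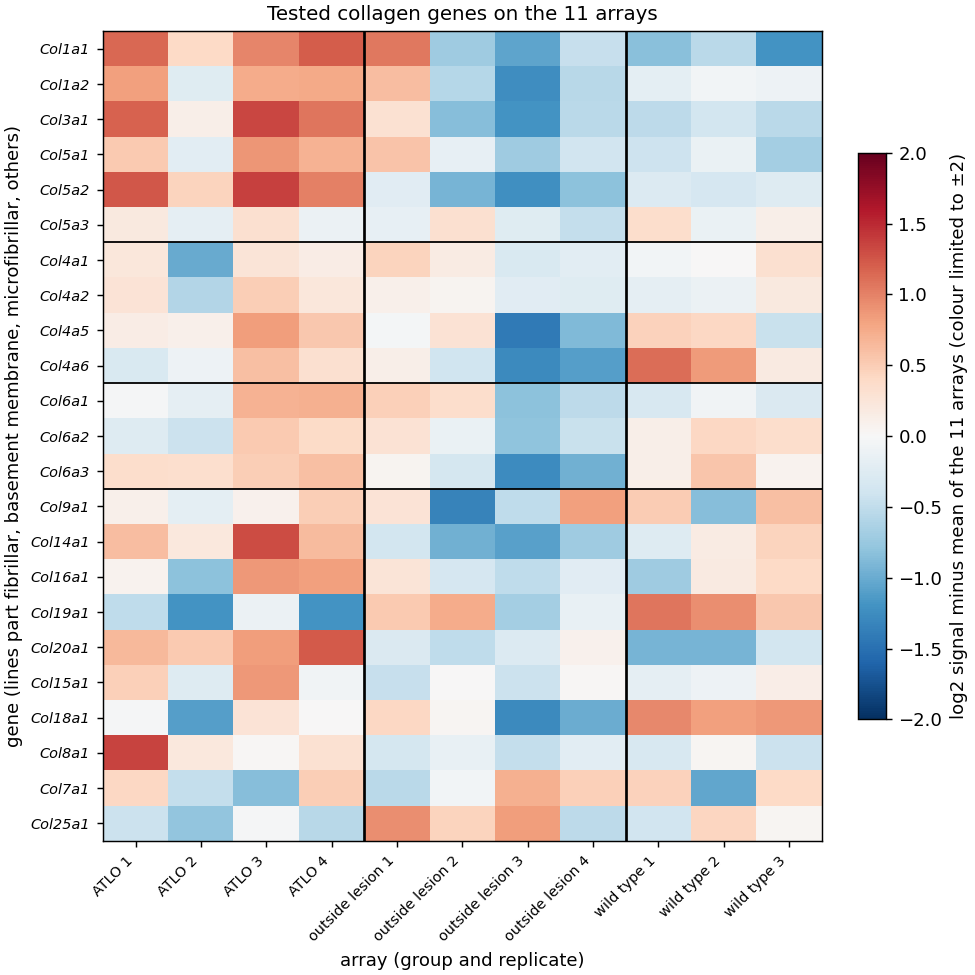
Log2 signal of the 23 tested collagen genes (rows, grouped by class with lines between classes) on the 11 arrays (columns, grouped with lines between groups), shown as the difference from each gene's mean over the arrays, with colours limited to ±2. The fibrillar genes Col1a1 to Col5a2 are red on ATLO replicates 1, 3 and 4, ATLO replicate 2 is paler or blue in most rows, and outside-lesion replicate 1 is redder than the other 3 outside-lesion arrays in the rows of Col1a1 to Col5a2.

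Of 6 tested fibrillar collagen genes 4 were higher in ATLO adventitia than in adventitia outside lesions, and no tested collagen gene was called lower. Col1a1, Col1a2, Col3a1 and Col5a2 rose among the fibrillar chains, Col6a3 was the 1 type VI chain called higher, and Col14a1, Col8a1 and the dim Col20a1 were called higher among the others. That is 8 of 23 tested collagen genes called (34.8%), when 34.7% of all tested genes were called in either direction, 19.8% of them higher and 14.9% lower. The share called in either direction was thus that of the array as a whole. By direction it was 34.8% higher, beside 19.8% of all tested genes, and 0% lower, beside 14.9%. The 8 fell to 5 without ATLO replicate 1, without ATLO replicate 4 or without outside-lesion replicate 3. Against wild type, 5 of 23 collagen genes were higher in ATLO (Col1a1, Col3a1, Col5a1, Col5a2 and Col20a1) and 1 was lower (Col19a1), when 13.4% of all tested genes were called higher and 14.1% lower, 27.5% in all. Between outside-lesion and wild-type adventitia no representing probe set of a collagen gene was called by limma, when 3.07% of all tested genes were (1.4% higher and 1.67% lower). At an unadjusted p under 0.05, 4 of 23 were lower and 0 higher in that comparison, when 22.0% of all tested genes passed in either direction. Col20a1 passed the filter on low values only through the ATLO arrays, where it was high, and Col19a1 only through outside-lesion and wild-type arrays, so their calls follow in part from how they came to be tested. Of the 17 collagen genes that were above the 40th percentile on 3 or more arrays of every group, 7 were called higher and 0 lower in ATLO against outside-lesion, when 19.3% and 16.6% of all genes that met this were. Against wild type 4 of the 17 were called higher and 0 lower in ATLO, when 12.6% and 14.9% of all such genes were. Outside lesions against wild type 0 of the 17 were called, when 1.6% of all such genes were higher and 1.83% lower. The comparisons share arrays, so their values are given side by side and not as separate evidence.

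Over all 9 fibrillar genes, tested or not, the median log2 difference was 0.95 between ATLO and outside-lesion arrays, 0.88 between ATLO and wild-type arrays, and -0.26 between outside-lesion and wild-type arrays. The medians of the 6 basement membrane genes were 0.09, -0.29 and -0.46, those of the 3 type VI genes 0.43, 0.19 and -0.56, and those of the 18 others 0.00 in each. All genes with 1 symbol had medians of 0.01, -0.03 and -0.08. These medians include genes too dim to be tested. Over the tested genes alone they were 1.09, 1.09 and -0.18 for the 6 fibrillar and 0.49, -0.03 and -0.36 for the 4 basement membrane genes. The 3 type VI genes were all tested. Medians of the 10 tested others were 0.37, 0.16 and -0.16, and those of all tested genes 0.10, -0.05 and -0.12.

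Col3a1 encodes type III collagen, the fibril former of distensible tissues and of lymphoid reticular fibres. Its signal was 25948, 12359, 28787 and 24028 on ATLO replicates 1 to 4, 14108, 6329.8, 5005 and 7896 on outside-lesion replicates 1 to 4 and 7986, 8909.5 and 7848 on wild-type replicates 1 to 3. ATLO replicate 2 lay below outside-lesion replicate 1, so these groups overlapped by that pair of arrays, and every ATLO array lay above every wild-type array, as in 17.6% of all tested genes. The log2 change of Col3a1 was 1.49 ± 0.31, adjusted p = 0.00271 against outside-lesion (2.82-fold) and 1.40 ± 0.34, adjusted p = 0.00897 against wild type (2.64-fold). A second Col3a1 probe set read 2549.5, 2646, 3401 and 2922 in ATLO, 533, 369.7, 281 and 315 outside lesions and 749, 878 and 455 in wild type. Here the groups were wide apart, with a log2 change of 2.98 ± 0.23, adjusted p = 8.41e-06 against outside-lesion, 7.88-fold.

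Col5a2 encodes a chain of type V collagen, which copolymerises with type I and sets fibril diameter. It had the largest called change against outside-lesion among the probe sets that represent a collagen gene, while further probe sets of Col1a1, Col1a2, Col3a1 and Col5a1 changed more. Its signal was 4697, 2705, 5124 and 3994 in ATLO, 1688, 1038, 849.5 and 1127 outside lesions and 1640.0, 1567 and 1666 in wild type. Every ATLO array was above every array of the other groups (19.2% of all tested genes were so placed against outside-lesion). The log2 change was 1.82 ± 0.22, adjusted p = 6.33e-05 against outside-lesion (3.53-fold) and 1.31 ± 0.24, adjusted p = 0.00193 against wild type (2.47-fold). Col5a1, the partner chain of Col5a2 in type V collagen, ran from 1276 to 2717 in ATLO, 902 to 2191 outside lesions and 920.0 to 1342 in wild type, overlapping throughout. It was called higher against wild type (0.88 ± 0.30, adjusted p = 0.042) and had a log2 change of 0.64 ± 0.28, adjusted p = 0.092 against outside-lesion. That call is near the threshold: 12 of 26 alternative settings ended it, with adjusted p between 0.00344 and 0.407 over the 26.

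Col1a1 and Col1a2 encode the chains of type I collagen, the main fibril protein of the adventitia. The Col1a1 signal was 3842, 2292, 3408 and 4018 in ATLO, 3580.4, 1061, 837 and 1263 outside lesions and 968, 1193 and 753 in wild type. Outside-lesion replicate 1 reached the ATLO range and the other 3 outside-lesion arrays did not, and no ATLO array overlapped wild type. The log2 change of Col1a1 was 1.23 ± 0.36, adjusted p = 0.0196 against outside-lesion (2.34-fold) and 1.80 ± 0.39, adjusted p = 0.00495 against wild type (3.47-fold). The first of these was lost in 7 of 26 alternative settings, among them without ATLO replicate 1 (adjusted p = 0.0507), without ATLO replicate 4 (0.0531), without outside-lesion replicate 2 (0.0516) and without outside-lesion replicate 3 (0.0619), with a range over the 26 of 0.000275 to 0.106. The Col1a2 signal was 22009.8, 10494, 20903 and 20927 in ATLO, 19168, 8406, 5253 and 8501 outside lesions and 10888, 11989 and 11634 in wild type. ATLO replicate 2 lay far below the other ATLO arrays and outside-lesion replicate 1 far above the other outside-lesion arrays. Col1a2 had a log2 change of 0.95 ± 0.34, adjusted p = 0.0466 against outside-lesion (1.94-fold) and 0.63 ± 0.37, adjusted p = 0.218 against wild type. Its call against outside-lesion ended in 14 of 26 alternative settings, including the removal of any 1 array other than ATLO replicate 2 or outside-lesion replicate 1 (adjusted p between 0.000395 and 0.247 over the 26).

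Col5a3, a further type V chain, had signals of 376 to 532 in ATLO, 304 to 527 outside lesions and 389 to 544 in wild type, and a log2 change of 0.20 ± 0.20, adjusted p = 0.468 against outside-lesion. The untested fibrillar genes were dim. Col2a1, the cartilage fibril chain, read 18.2 to 155 in ATLO and 10.4 to 23.7 outside lesions, and Col11a1 and Col11a2 stayed at or below 169 on every array.

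**Figure D2:**
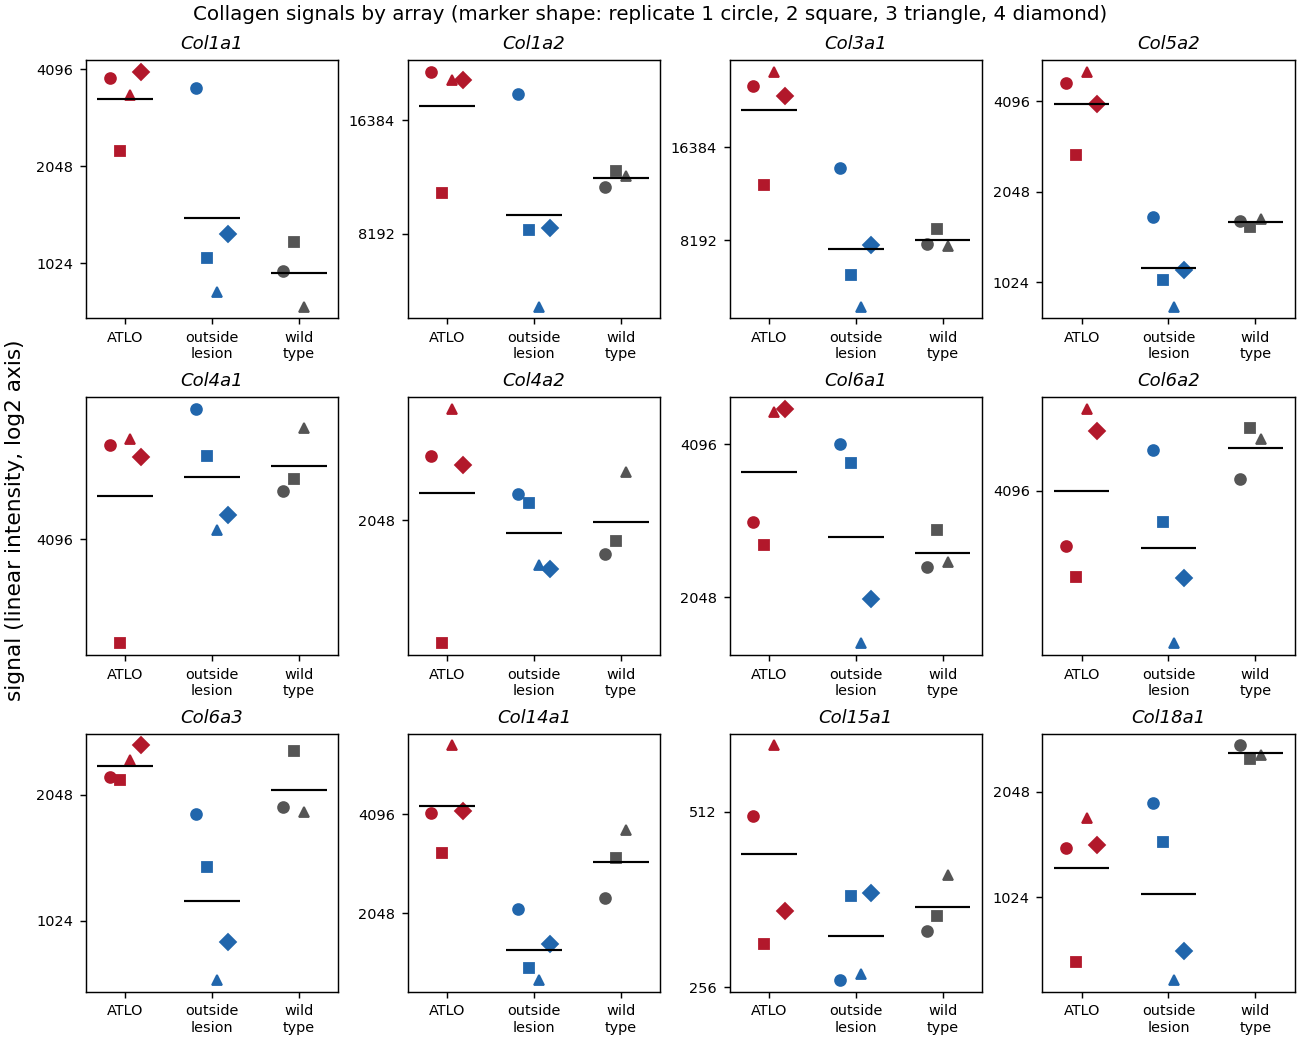
Signal (linear intensity on a log2 axis, a separate scale for each gene) of 12 collagen genes by group, with 1 point per array, its replicate number given by the marker shape, and a bar at the mean of the log2 values. Col5a2 on ATLO arrays (2705 to 5124) lies above all other arrays, Col4a1 overlaps in all groups, and Col18a1 lies between 2534 and 2778 in wild type, above all Apoe-deficient arrays.

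Upstream sequences of 27 of the 36 genes were in the RefSeq promoter table (GRCm38.p6), and the 250 bases before the annotated start are given for 3 fibrillar genes. How alike these windows are was not measured. Capitals mark 3 short motifs searched on both strands: the box CCAAT, whose other strand reads ATTGG, then the GC box GGGCGG, whose other strand reads CCGCCC, and the box TATAAA, whose other strand reads TTTATA. None of these matches overlapped in the windows given. Col1a2 lies at chr6:4505368-4505617, plus strand, Col3a1 at chr1:45311288-45311537, plus strand, and Col5a1 at chr2:27886175-27886424, plus strand.
Col1a2: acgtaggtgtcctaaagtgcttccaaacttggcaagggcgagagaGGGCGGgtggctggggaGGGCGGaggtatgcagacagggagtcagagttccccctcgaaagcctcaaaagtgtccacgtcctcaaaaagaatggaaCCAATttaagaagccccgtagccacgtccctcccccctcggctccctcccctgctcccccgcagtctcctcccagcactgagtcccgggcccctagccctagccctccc
Col3a1: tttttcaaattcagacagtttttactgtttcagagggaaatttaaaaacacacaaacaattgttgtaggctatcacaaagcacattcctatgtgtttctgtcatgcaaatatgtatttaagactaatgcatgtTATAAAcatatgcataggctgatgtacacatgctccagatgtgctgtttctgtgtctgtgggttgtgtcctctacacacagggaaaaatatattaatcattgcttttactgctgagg
Col5a1: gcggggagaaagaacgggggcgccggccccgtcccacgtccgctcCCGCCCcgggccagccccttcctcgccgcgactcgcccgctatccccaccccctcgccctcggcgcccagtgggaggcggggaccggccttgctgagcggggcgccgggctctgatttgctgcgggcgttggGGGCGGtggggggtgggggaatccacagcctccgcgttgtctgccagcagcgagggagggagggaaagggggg
The Col1a2 window held 1 CCAAT and 2 GGGCGG matches, the Col3a1 window 1 TATAAA match and neither of the others, and the Col5a1 window 2 GC boxes, 1 on each strand. Over the 27 collagen genes, 12 (44.4%) held a CCAAT match, 15 (55.6%) a GC box match and 5 (18.5%) a TATAAA match, when 33.8%, 32.7% and 12.4% of 32851 windows of the same length did. The collagen shares count a gene where any of its windows held a match, while the other shares count single windows. These matches are letters in a window and not shown to be sites. Col3a1 and Col5a2 are next to each other in the RefSeq order of protein-coding genes on chromosome 1, and both rose in ATLO against each other group. Col1a1, Col5a2 and Col14a1 had no upstream window in the table.

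The basement membrane chains Col4a1 and Col4a2, which pair in the common form of type IV collagen, were not called in any comparison. The Col4a1 signal was 6140.3, 2619, 6283 and 5831 in ATLO, 7173, 5862, 4260.0 and 4542 outside lesions and 5036, 5308 and 6587 in wild type. Apart from ATLO replicate 2, which was the lowest of the 11, the arrays of the 3 groups interleaved. The log2 change of Col4a1 was -0.12 ± 0.27, adjusted p = 0.777 against outside-lesion and -0.19 ± 0.29, adjusted p = 0.667 against wild type. The Col4a2 signal was 2512, 1388, 2920.3 and 2439 in ATLO, 2225, 2163, 1777 and 1757 outside lesions and 1842, 1917 and 2388 in wild type, again lowest on ATLO replicate 2. Its log2 change was 0.18 ± 0.21, adjusted p = 0.545 against outside-lesion and 0.13 ± 0.22, adjusted p = 0.694 against wild type. Col4a1 and Col4a2 are transcribed away from each other on chromosome 8 and their 300-base RefSeq start windows share 78 bases.

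The X-linked type IV chains Col4a5 and Col4a6, also neighbours in the gene order, are minor chains of some basement membranes. Col4a5 ran from 842 to 1389 in ATLO, 292 to 957 outside lesions and 574 to 1073 in wild type, with a log2 change of 0.92 ± 0.34, adjusted p = 0.0522 against outside-lesion. That lay near the threshold: 6 of 26 alternative settings called it higher, with adjusted p between 0.00655 and 0.304 over the 26. Col4a6 ran from 119 to 221, 60.8 to 158 and 165 to 318, and each outside-lesion array lay below each wild-type array. Set against wild type, the outside-lesion log2 change was -1.38 ± 0.37, adjusted p = 0.0574 on the representing probe set and -1.61 ± 0.39, adjusted p = 0.0428 on a further one, which was called. In that comparison 7 of 25 alternative settings called Col4a6 lower, the use of the further probe set among them (adjusted p between 0.0101 and 0.18). The ATLO change of Col4a6 against outside-lesion was 0.80, and 3 of 25 settings called it higher (0.0155 to 0.415). Non-overlap in that direction was found in 13.4% of all tested genes, and in the other in 7.51%. Col4a3 and Col4a4, the chains of the kidney filter, were not tested and stayed at or below 184 on every array.

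Type VI collagen is built from 3 different chains, and here they did not share a call. Col6a3 was 2250.2, 2221, 2474 and 2684 in ATLO, 1839, 1377, 740.3 and 911 outside lesions and 1908, 2597 and 1864 in wild type. ATLO lay above outside-lesion without overlap, and within the wild-type range or close to it. The log2 change of Col6a3 was 1.07 ± 0.24, adjusted p = 0.00409 against outside-lesion (2.1-fold), 0.19 ± 0.26, adjusted p = 0.61 against wild type, and outside-lesion tissue differed from wild type by -0.88 ± 0.26, adjusted p = 0.0805. Col6a1 read 2884, 2590.3, 4743 and 4817 in ATLO, 4096, 3764, 1662 and 2033 outside lesions and 2348, 2784 and 2398 in wild type. ATLO replicates 1 and 2 and outside-lesion replicates 3 and 4 were the low arrays of their groups, and the groups overlapped. Col6a2, which neighbours Col6a1 on chromosome 10, read 3308, 2922, 5655 and 5179 in ATLO, 4807, 3624, 2258 and 2918 outside lesions and 4298, 5249.6 and 5024 in wild type, and its groups overlapped in the same way. The log2 changes against outside-lesion were 0.43 ± 0.29, adjusted p = 0.291 for Col6a1 and 0.33 ± 0.25, adjusted p = 0.356 for Col6a2. Whether Col6a3 differed from its partner chains was not tested.

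Among the fibril-associated collagens, Col14a1, a chain on the surface of type I fibrils, rose in ATLO. Its signal was 4129.5, 3127, 6664 and 4210.0 in ATLO, 2102, 1391, 1279.7 and 1644 outside lesions and 2273, 3024 and 3685 in wild type. The groups were ordered with outside-lesion lowest, wild type between and ATLO highest, ATLO and wild type overlapping and outside-lesion apart from both. The log2 change was 1.47 ± 0.23, adjusted p = 0.000383 against outside-lesion (2.77-fold), 0.57 ± 0.25, adjusted p = 0.112 against wild type, and outside-lesion tissue differed from wild type by -0.90 ± 0.25, adjusted p = 0.0698. A second Col14a1 probe set had a log2 change of 1.38 ± 0.26, adjusted p = 0.00113 against outside-lesion.

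Col20a1 and Col19a1, further fibril-associated chains, were dim. Col20a1 read 161, 149, 184 and 239.8 in ATLO, 83.9, 72.1, 84.8 and 109.6 outside lesions and 54.1, 53.9 and 79.8 in wild type, and the 4 ATLO arrays lay above all others. Its log2 change was 1.06 ± 0.27, adjusted p = 0.00847 against outside-lesion and 1.55 ± 0.29, adjusted p = 0.00205 against wild type. A second Col20a1 probe set did not show the first of these, at -0.03 ± 0.46, adjusted p = 0.963. Col19a1 read 56.5, 22.8, 74.1 and 15.9 in ATLO, 115, 134, 50.0 and 72.4 outside lesions and 167, 153 and 117 in wild type. No ATLO array passed the 40th percentile for Col19a1 and 2 of them were at the floor of 35.1, so the change against wild type (-1.60 ± 0.41, adjusted p = 0.0122) is understated by the floor. That call was lost without wild-type replicate 1 (adjusted p = 0.0527, in a range of 0.00397 to 0.0527 over 25 alternatives). Against outside-lesion, Col16a1 differed by 0.44 ± 0.35, adjusted p = 0.368, and Col9a1 by 0.30 ± 0.46, adjusted p = 0.653.

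Col15a1 and Col18a1 encode the multiplexins of basement membrane zones, Col18a1 being the precursor of endostatin. Col18a1 read 1414, 668, 1726 and 1447 in ATLO, 1899.9, 1474, 594 and 719.7 outside lesions and 2778, 2534 and 2604 in wild type. All Apoe-deficient arrays lay below all wild-type arrays, and the ATLO and outside-lesion arrays overlapped. The log2 change of Col18a1 was -1.09 ± 0.38, adjusted p = 0.0504 for ATLO and -1.33 ± 0.38, adjusted p = 0.0746 for outside-lesion, each against wild type, and neither was called. Both lay near the threshold: 13 of 26 alternative settings called the first lower (adjusted p between 0.0176 and 0.136 over the 26) and 5 of 26 the second (0.0102 to 0.173). Among the 13 were the fits without ATLO replicate 3 (0.0439) and without any 1 of outside-lesion replicates 1 to 4 (0.0316, 0.0476, 0.0333 and 0.0488), and among the 5 those without ATLO replicate 2 (0.0422) and without outside-lesion replicate 2 (0.0487). A second Col18a1 probe set read 862, 410.3, 879 and 775 in ATLO, 753, 789, 390.3 and 258 outside lesions and 1489.9, 1577 and 1276 in wild type. It was called lower in both, at -1.04 ± 0.36, adjusted p = 0.0488 and -1.54 ± 0.36, adjusted p = 0.0397. Arrays of ATLO lay without overlap below wild type in 21.9% of all tested genes. Extraction kit and genotype cannot be told apart here. Col15a1 read 504, 304, 666 and 345 in ATLO, 263, 367, 269 and 371 outside lesions and 320.0, 339.5 and 398 in wild type, with overlap throughout and a log2 change of 0.47 ± 0.24, adjusted p = 0.158 against outside-lesion.

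Col8a1, a short network-forming chain known from vessel walls, read 601, 274, 240.2 and 289.9 in ATLO, 185, 212, 169.7 and 204 outside lesions and 188, 242 and 175 in wild type. All ATLO arrays were above all outside-lesion arrays, ATLO replicate 1 by a wide margin. Its log2 change against outside-lesion was 0.77 ± 0.26, adjusted p = 0.0381, and 12 of 25 alternative settings ended the call, including equal array medians (0.0861), quantile normalization (0.0814) and the removal of ATLO replicate 1 (0.0874), with adjusted p between 0.024 and 0.18 over the 25. Col7a1, the anchoring fibril chain of skin, and Col25a1, a transmembrane chain, were dim and had log2 changes of -0.25 ± 0.44, adjusted p = 0.702 and -0.87 ± 0.34, adjusted p = 0.0637 against outside-lesion.

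**Figure D3:**
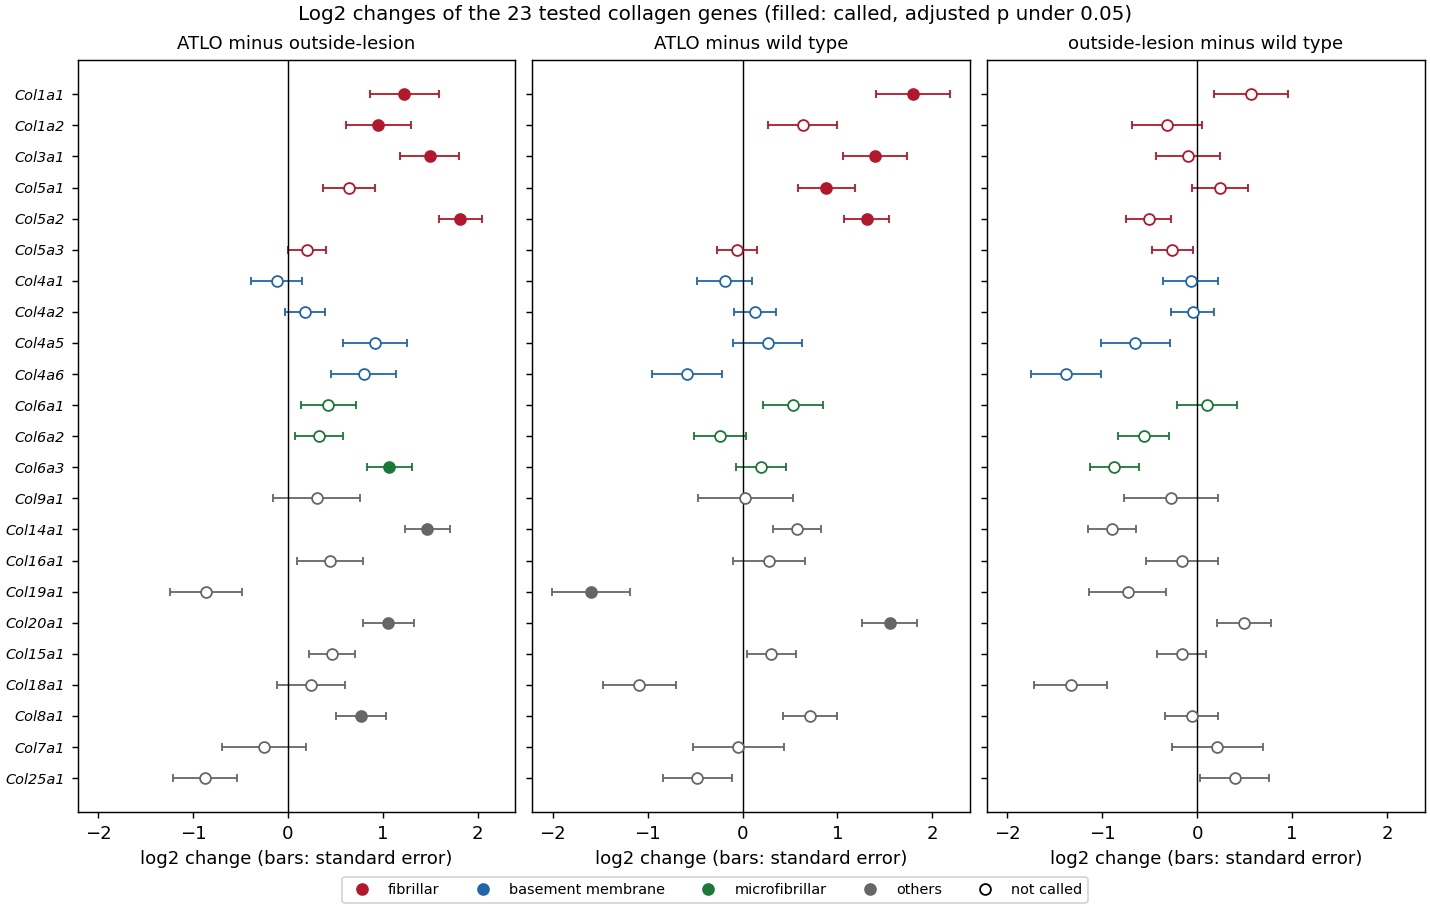
Log2 change with its standard error for the 23 tested collagen genes in each of the 3 comparisons, coloured by class, filled where the adjusted p was under 0.05. In ATLO minus outside-lesion the filled points lie between 0.77 (Col8a1) and 1.82 (Col5a2), Col4a1 and Col4a2 lie at -0.12 and 0.18, and no point is filled in outside-lesion minus wild type.

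12 collagen genes had more than 1 tested probe set. Their probe sets had the same sign in 11 of 12 for ATLO against outside-lesion (the exception being Col20a1), in 9 of 12 when ATLO was set against wild type and in 10 of 12 when outside-lesion was. Counted by probe set, 15 of 36 were called higher and 0 lower in ATLO against outside-lesion (31.9% of all tested probe sets were called), 9 higher and 2 lower in ATLO against wild type (26.8%), and 0 higher and 3 lower outside lesions against wild type (3.26%). The last 3 were further probe sets of Col4a6, Col18a1 and Col5a1, and none of them represented its gene. The dimmest probe set gave the larger ATLO-minus-outside-lesion change in size in 6 of 12 genes. For Col1a2 the change was 0.95 on the brightest and 1.97 ± 0.35, adjusted p = 0.000795 on the dimmest. For Col1a1 it was 1.23 and 1.97 ± 0.47, adjusted p = 0.00596. For Col5a1 it was 0.64 and 2.05 ± 0.36, adjusted p = 0.000804, so the brightest probe set of Col5a1 was not called and the dimmest was. The dimmest probe set of Col5a1 read 181, 203, 366 and 228 in ATLO and 25.6, 94.0, 22.1 and 88.6 outside lesions, 2 of the latter at the floor. The actin 3′ to 5′ ratio was highest on average on the outside-lesion arrays, which overlapped the ATLO arrays and lay above all wild-type arrays. The Gapdh ratio overlapped between the groups. The part of either ratio in the differences between probe sets was not tested.

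Leaving out both ATLO replicate 2 and outside-lesion replicate 1, a choice made after seeing the data, gave 10 collagen genes higher in ATLO against outside-lesion and 7 higher against wild type, and 5 lower outside lesions against wild type. Against outside-lesion Col5a1, Col4a6 and Col16a1 gained a call, at log2 changes of 1.12, 1.13 and 0.95, and Col8a1 lost its call, at 0.84 (adjusted p = 0.0759). Against wild type Col1a2 and Col14a1 gained a call, at 0.89 and 0.73. The 5 lower outside lesions were Col4a6 (-1.64), Col18a1 (-1.62), Col6a3 (-1.10), Col14a1 (-1.04) and Col5a2 (-0.70). The median log2 difference of the fibrillar genes against outside-lesion was then 1.56. Those 2 arrays were the low one of ATLO and the high one of the outside-lesion group, so the opposite choice, leaving out ATLO replicate 3 and outside-lesion replicate 3, was made too, also after seeing the data. It gave 5 collagen genes higher against outside-lesion (Col3a1, Col5a2, Col6a3, Col14a1 and Col20a1) and 1 lower (Col19a1, -1.33, adjusted p = 0.0244). The calls of Col1a1 (0.96, adjusted p = 0.106), Col1a2 (0.61, 0.247) and Col8a1 (0.86, 0.0558) were lost. Against wild type it gave 4 higher, the call of Col5a1 being lost (0.75, adjusted p = 0.0825), and 2 lower, with Col18a1 called at -1.25 (adjusted p = 0.0279). No collagen gene was called outside lesions against wild type, and the fibrillar median against outside-lesion was 0.61.

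Differences between a pair of collagen probe sets within an array do not depend on that array's scaling. The pairs were chosen after their values were seen and are descriptions without a test. Col3a1 minus Col4a1 was 2.04 to 2.24 on the log2 scale in ATLO, 0.11 to 0.98 outside lesions and 0.25 to 0.75 in wild type, so ATLO stood above both, ATLO replicate 2 included. Col3a1 minus Col1a2 was 0.20 to 0.46 in ATLO, -0.44 to -0.07 outside lesions and -0.57 to -0.43 in wild type. Col5a2 minus Col5a1 was 0.74 to 1.15 in ATLO, -0.38 to 0.00 outside lesions and 0.22 to 0.86 in wild type. Col6a3 minus Col6a1 was -0.94 to -0.22 in ATLO, -1.45 to -1.16 outside lesions and -0.36 to -0.10 in wild type. Col1a1 minus Col1a2 was -3.95 to -3.33 in wild type, -2.62 to -2.19 in ATLO and -2.99 to -2.42 outside lesions. Another 3 pairs were looked at. Col6a3 minus Col6a2 was -1.19 to -0.40 in ATLO, -1.68 to -1.39 outside lesions and -1.43 to -1.02 in wild type. Here ATLO lay above outside-lesion without overlap, and wild type overlapped both. Col4a1 minus Col4a2 was 0.92 to 1.29, 1.26 to 1.69 and 1.45 to 1.47. ATLO lay below wild type without overlap in this pair, and outside-lesion overlapped both. Col14a1 minus Col1a2 was -2.41 to -1.65, -3.19 to -2.04 and -2.26 to -1.66, overlapping in all 3 groups.

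**Figure D4:**
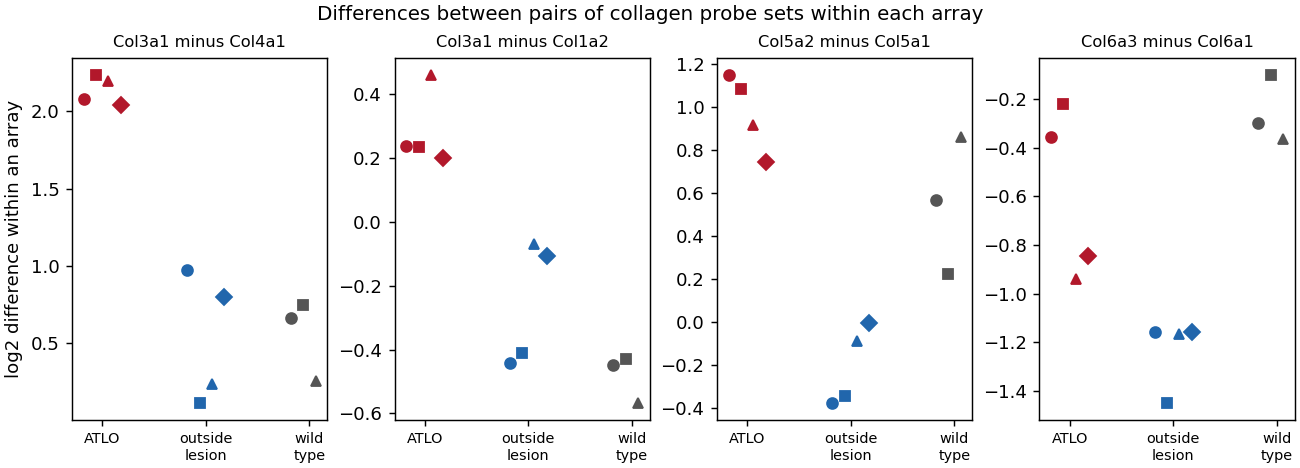
Log2 difference between 2 collagen probe sets on the same array, by group, for 4 pairs (1 panel each, 1 point per array, marker shape for the replicate number). Col3a1 minus Col4a1 lies between 2.04 and 2.24 on the ATLO arrays and at most at 0.98 on the others, and Col6a3 minus Col6a1 is lowest on the outside-lesion arrays.

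Genes of the collagen pathway were read from 7 lists that held 62 genes on the array, 56 of them tested. The lists covered the modification, folding and export, cleavage and cross-linking of procollagen. They also covered fibril organisers (9 genes), collagen receptors (8) and regulators of procollagen genes (13). The totals are therefore not of procollagen processing alone. In ATLO against outside-lesion 19 rose and 1 fell, in ATLO against wild type 7 rose and 4 fell, and outside lesions against wild type 0 rose and 2 fell. That is 35.7%, 19.6% and 3.57% of the 56, when 34.7%, 27.5% and 3.07% of all tested genes were called, so the shares called were near or below the background. In ATLO against outside-lesion 33.9% of the 56 were higher and 1.79% lower, beside 19.8% and 14.9% of all tested genes, and each list that follows is read against those 2 shares. The median log2 difference over the 62 genes was 0.41, 0.05 and -0.32 in the 3 comparisons, beside 0.01, -0.03 and -0.08 over all genes. A place on a list does not make a gene specific to collagen, and which cells carried these changes was not tested.

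Enzymes of proline and lysine modification rose in ATLO against outside-lesion in 5 of 12 tested genes (41.7%, background 19.8%), none falling. Plod2, the lysyl hydroxylase of telopeptides, read 1148, 1043, 1050.0 and 1522 in ATLO, 365, 281, 358 and 315 outside lesions and 346, 462 and 371 in wild type. All ATLO arrays lay above all others. Its log2 change was 1.84 ± 0.17, adjusted p = 1.59e-05 against outside-lesion and 1.59 ± 0.18, adjusted p = 0.000116 against wild type. The prolyl hydroxylase subunit P4hb (0.82 ± 0.15, adjusted p = 0.00125), the prolyl isomerase Ppib (0.74 ± 0.19, adjusted p = 0.0107) and the galactosyltransferase Colgalt1 (0.68 ± 0.16, adjusted p = 0.00588) rose with it, as did Plod3. Against wild type Ppib rose (1.11 ± 0.21, adjusted p = 0.0023) and P3h4, part of a lysyl hydroxylation complex, fell (-0.84 ± 0.25, adjusted p = 0.023), and outside lesions against wild type 0 of 12 were called.

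Of 8 tested genes of folding and export, 4 rose (50.0%, background 19.8%) and 1 fell (12.5%, background 14.9%) in ATLO against outside-lesion. The coat protein Sec24d (0.96 ± 0.16, adjusted p = 0.000519), the transcription factor Creb3l1 (0.77 ± 0.23, adjusted p = 0.0221), the export receptor Mia3 (0.60 ± 0.13, adjusted p = 0.00336) and Kdelr2 rose. Tmem38b, an ion channel of the endoplasmic reticulum, fell (-0.89 ± 0.19, adjusted p = 0.00285). Against wild type Mia3 rose in ATLO (0.59 ± 0.14, adjusted p = 0.00862), and outside lesions Sec24d fell (-0.75 ± 0.17, adjusted p = 0.0382). Among 4 tested genes of propeptide cleavage, the proteinase Bmp1 rose in ATLO against outside-lesion (0.87 ± 0.26, adjusted p = 0.0217), a share of 25.0% beside 19.8%. Pcolce2, an enhancer of that proteinase, read 592, 388, 976 and 727 in ATLO, 1415, 1153, 662 and 992 outside lesions and 1998, 2377 and 2936 in wild type. Wild type was highest without overlap, and Pcolce2 fell in ATLO (-1.92 ± 0.30, adjusted p = 0.000697) and outside lesions (-1.24 ± 0.30, adjusted p = 0.0418) against it.

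Of 5 tested cross-linking genes 2 were called higher (background 19.8%): the lysyl oxidases Lox (1.18 ± 0.24, adjusted p = 0.00236) and Loxl3 (0.67 ± 0.22, adjusted p = 0.0299) rose in ATLO against outside-lesion, and none was called in either other comparison. Of 9 tested fibril organisers 4 rose (44.4%, background 19.8%), the cartilage oligomeric matrix protein Comp (1.59 ± 0.28, adjusted p = 0.000715), the matricellular Thbs2 (1.28 ± 0.19, adjusted p = 0.000184), Abi3bp (1.10 ± 0.18, adjusted p = 0.00046) and fibronectin, Fn1 (0.88 ± 0.31, adjusted p = 0.0434). Against wild type Matn2 (1.05 ± 0.22, adjusted p = 0.00413) and Sparc, a collagen chaperone of the matrix, rose in ATLO. Outside lesions against wild type none of the 9 was called.

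Of 7 tested genes on the collagen receptor list 2 rose in ATLO against outside-lesion (28.6%, background 19.8%). Lair1, an inhibitory collagen receptor of leukocytes, read 275, 349, 255 and 189 in ATLO, 114, 58.0, 69.3 and 86.7 outside lesions and 64.8, 108 and 87.6 in wild type, and ATLO was highest without overlap. Its log2 change was 1.72 ± 0.29, adjusted p = 0.000555 against outside-lesion and 1.62 ± 0.31, adjusted p = 0.00258 against wild type. Mrc2, the receptor that takes up collagen fragments into fibroblasts and other stromal cells, rose against outside-lesion (1.32 ± 0.28, adjusted p = 0.00266). Cd93, which was on the list but is not an established collagen receptor, rose against wild type (0.52 ± 0.17, adjusted p = 0.038). None of the 7 was called outside lesions against wild type. Of 11 tested genes listed as regulators of procollagen genes, Tcf4 rose in ATLO against outside-lesion (0.51 ± 0.12, adjusted p = 0.00422), a share of 9.09% and below the background of 19.8%. Tgfb3 (-1.30 ± 0.36, adjusted p = 0.0188) and Tcf21 (-1.27 ± 0.42, adjusted p = 0.0406) fell in ATLO against wild type, and none was called outside lesions against wild type. Tgfb1, the best known inducer of fibrillar collagen genes, had log2 changes of 0.44 ± 0.21, adjusted p = 0.131 and 0.36 ± 0.23, adjusted p = 0.259 in the first and second of these comparisons.

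**Figure D5:**
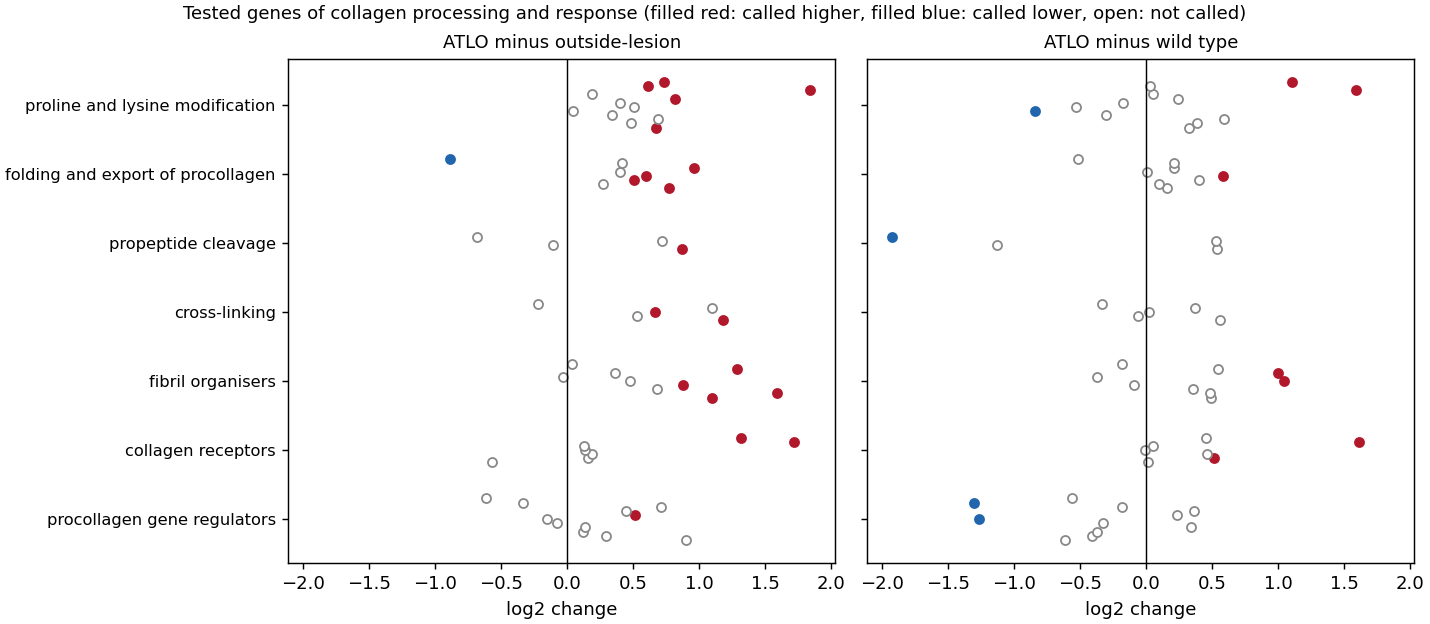
Log2 change of the tested genes of 7 lists of collagen processing, organisation, receptors and regulation (rows) in ATLO minus outside-lesion and ATLO minus wild type, filled red where called higher, filled blue where called lower and open where not called. Against outside-lesion 19 points are red and 1, Tmem38b at -0.89, is blue. Against wild type 7 are red and 4 blue.

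Marker genes of the cells that make or neighbour collagen differed between the groups in some lists and were mixed or overlapping in others. Their part in the collagen results was not tested. In these bulk samples fewer cells of a type and less RNA per cell cannot be told apart. Unless stated, the counts in this paragraph are for ATLO against outside-lesion, when 19.8% of all tested genes were called higher and 14.9% lower. All 13 fibroblast markers were tested, and 5 rose in ATLO against outside-lesion, Lum, Thy1, Pdgfra, Fbln1 and Pdgfrb. None was called lower, and the log2 change was above 0 in 9 and below 0 in 4 of the 13. Against wild type 2 were called higher and 2 lower in ATLO (all tested genes 13.4% and 14.1%), with a median log2 change of -0.03. Outside lesions against wild type 0 of the 13 were called higher and 3 lower (23.1%, beside 1.67% of all tested genes lower). There the log2 change was below 0 in 12 and above 0 in 1, with a median of -0.68. The summed signal of the 13 overlapped in all groups, at 51323 to 95888 in ATLO, 49377 to 107814 outside lesions and 69542 to 83767 in wild type. Lum, a proteoglycan of collagen fibrils, read 10063, 6869.5, 8270.2 and 6566 in ATLO, 1809.6, 1424, 618 and 1138 outside lesions and 2098, 2947 and 3047 in wild type (2.75 ± 0.28, adjusted p = 2.17e-05 against outside-lesion), and the fibril proteoglycan Dcn had a log2 change of 0.14 ± 0.27, adjusted p = 0.729. Of 6 tested fibroblastic reticular markers 4 rose, with sums of 11873 to 12900 in ATLO, 3727 to 3973 outside lesions and 4158 to 6466 in wild type. That list was mixed, with log2 differences above 0 in 5 and below 0 in 2 of its 7 genes on the array. Against wild type 4 were above and 3 below 0, with a median of 0.19. Smooth muscle markers were called lower in 4 of 10 genes (sums 12730 to 31744 in ATLO, 21476 to 66452 outside lesions and 43846 to 47634 in wild type). Against wild type 7 of the 10 were called lower in ATLO (all tested genes 14.1%), with a median of -1.26. Outside lesions against wild type 0 were called, with a median of -0.79. Endothelial markers were called lower in 5 of 10 (sums 3941 to 6139, 6735 to 14402 and 5836 to 8203). Adipocyte markers were called lower in 8 of 9 (sums 28236 to 80891, 140321 to 217586 and 80702 to 107140). Macrophage (8 of 9), B cell (6 of 6) and T cell markers (all 4 tested, of 7 on the array) were called higher. The macrophage sums were 50742 to 83777 in ATLO, 18126 to 32873 outside lesions and 23673 to 32559 in wild type. B cell sums were 9834 to 22880 in ATLO, 938 to 2011 outside lesions and 749 to 6344 in wild type, and T cell sums 2929 to 5742, 392 to 613 and 511 to 1155. Sums of the macrophage, B cell, T cell and fibroblastic reticular lists in ATLO thus lay above those of both other groups without overlap, and the adipocyte and endothelial sums in ATLO below those outside lesions. The smooth muscle sums in ATLO lay below those of wild type without overlap. Such sums are weighted towards the bright probe sets of a list and do not mean that each member moved. 2 T cell markers were at the floor on every outside-lesion and every wild-type array. Schwann cell markers were called lower in 1 of 4 (sums 5380 to 8330, 5372 to 8408 and 5968 to 10184). Of 8 chondrocyte markers only Comp and Prg4 were tested and both rose (sums 3072 to 4134, 729 to 981 and 1012 to 1954). Over all 8 the log2 difference was above 0 in 3 and below 0 in 4, with a median of -0.01, and against wild type above 0 in 2 and below 0 in 6. None of 5 mesothelial markers was bright enough to be tested (sums 126 to 234, 148 to 291 and 128 to 240).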

How the data were processed

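The deposited table holds 1 linear signal intensity per probe set and array, made by the authors with GCOS 1.4 per the submitters' processing notes. How probes were summarised beyond that is not stated there. The intensities have the same trimmed mean on every array (500.2, 2% of probe sets trimmed at each end), so they were scaled before deposit. Arrays have no counts behind them, and their number limits the precision.

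Of 22690 probe sets 64 controls were left out. Names came from the platform annotation: 20380 probe sets had 1 symbol, 691 several and 1555 none. Values under 35.1, the 20th percentile over the table, were set to 35.1 before log2, so folds of dim genes are understated. Testing required a signal over the array's 40th percentile on 3 or more arrays. Group means were estimated from the 11 arrays together in limma 3.58.1 (lmFit and eBayes with an intensity trend) in R 4.3.3, with Benjamini-Hochberg adjustment over all 14988 tested probe sets. The fit was tested on simulated data.

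The collagen genes, their classes, the 7 pathway lists, the 11 marker lists, the tests and the alternatives were chosen with earlier results of these data known. Values on every array are given for called collagens, up to 4 of a class by size of change, and for Col1a1, Col1a2, Col3a1, Col4a1, Col4a2, Col6a1, Col6a2, Col6a3, Col14a1, Col15a1 and Col18a1 in any case. Called genes of the pathway lists may be named, at most 4 with values for each comparison. Second probe sets, Tgfb1, Dcn, Lum and the within-array pairs were picked after their values were seen. Gene IDs of 36 of 36 collagen genes matched RefSeq with the same symbol, and upstream sequences are RefSeq's (GRCm38.p6). No build is named for the array, so its probes carry no coordinates here.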

Additional observations from a re-analysis of the deposited data

Results flagged for a closer look

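In 46 groups of 4 arrays (23 tested collagen genes, ATLO and outside-lesion), a single array lay farther from the rest of its group than Dixon's 95% limit in 2 cases, and chance alone gives about 1 in 20 groups. In both the array was ATLO replicate 2, at the low end. Its Col1a2 signal was 10493.8, when the other 3 ATLO arrays read 20903 to 22009.8. Its Col4a1 signal was 2618.8, when the others read 5831 to 6283. The same array had the lowest actin 3′ to 5′ ratio, 1.71, and the lowest maximum signal of the 11 arrays, 17299. The part of either in these values was not tested.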

How the results depend on the processing

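The collagen counts, the collagen genes and the count of all probe sets called were recomputed under 23 other settings and 3 more added after seeing the data, and the class medians under 17 of these. The pathway and marker lists were not recomputed. Col3a1, Col5a2, Col6a3 and Col14a1 kept their call against outside-lesion under all 26, as did Col1a1, Col3a1 and Col5a2 against wild type. Collagen genes higher in ATLO against outside-lesion (8) numbered 5 to 10 with 1 array left out, 5 of them without ATLO replicate 1, ATLO replicate 4 or outside-lesion replicate 3. The count lower there (0) was 1 with equal array medians, or without both ATLO replicate 3 and outside-lesion replicate 3 (where 5 were higher), and 0 to 1 with 1 array left out, and all probe sets called (4777) fell to 2552 with the actin ratio as a covariate. The count lower in ATLO against wild type (1) was 2 with quantile normalization, a floor at the 30th percentile, no filter, only the 2 groups compared, array weights, the dimmest probe set per gene (added) or without both replicates 3, 3 with probe sets averaged and 0 to 2 with 1 array left out (0 without wild-type replicate 1). The count lower outside lesions against wild type (0) was 1 with a floor at the 30th percentile or averaged probe sets, 4 with array weights, 3 with the dimmest probe set, 5 without both ATLO replicate 2 and outside-lesion replicate 1, and 0 to 2 with 1 array left out. All probe sets called there (489) were 301 without a filter, 202 with only the 2 groups, 248 without the intensity trend, 1530 with array weights, 206 averaged, 86 with the actin ratio, 52 without both replicates 3, and 21 (without wild-type replicate 2) to 887 (without outside-lesion replicate 2) with 1 array left out. With the dimmest probe set, Col20a1 against outside-lesion turned to -0.033 and Col5a1 outside lesions against wild type to -1.59. With the replicate block all probe sets called outside lesions against wild type were 189, and the 8 collagen calls in ATLO against outside-lesion were the same genes. Deviations of same-numbered arrays correlated at 0.040 to 0.153 between ATLO and outside-lesion, at 0.005 to 0.273 between ATLO and wild type and at -0.178 to 0.121 between outside-lesion and wild type. These were not over 0.1 in every pair, and no label gives a number a shared source, so the numbers were not taken as pairing the samples. The block also ended the call of Col5a1 in ATLO against wild type (adjusted p = 0.0659). The cause of these differences was not tested. Dim collagens are limited by the floor.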

Other observations

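Collagen genes too dim to be tested still differed in signal between arrays, and are given as values without a test. Col2a1, the main fibril chain of cartilage, read 91.0, 18.2, 155 and 95.4 on ATLO replicates 1 to 4, 10.4 to 23.7 outside lesions and 7.2 to 14.6 in wild type, so that 3 of the 4 ATLO arrays lay above the floor of 35.1 and no other array did. Col4a3, a type IV chain best known from the kidney, read 184, 103 and 155 in wild type, 43.2 to 73.1 in ATLO and 4.4 to 98.4 outside lesions. Both were picked after their values were seen. Col9a2, Col10a1 and Col17a1, chains of cartilage and epithelium, were at the floor on all 11 arrays.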
